A study of Rattus norvegicus with 10 samples.

Results

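Expression of 9 myelin and oligodendrocyte genes was examined in the rat hippocampus after electrical stimulation of the amygdala. The genes were taken by symbol from a matrix of read counts per RefSeq transcript, in which 16610 genes had a symbol, and the row with the highest mean count was used for each. They were Mbp, Mog, Mag, Mobp, Cnp and Mal, which encode proteins of the myelin sheath, Sox10 and Olig1, which encode transcription factors of the oligodendrocyte lineage, and Pdgfra, which encodes a growth factor receptor of oligodendrocyte progenitors. All 9 passed the filter on low counts.

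The question was whether these genes differ between epileptic and control tissue 3 months after the insult. Polyadenylated RNA was sequenced from the left hippocampus, in a piece holding the CA3 field and the dentate gyrus, of 10 rats, males of the outbred Sprague-Dawley strain. The 5 sham operated rats (rats 1 to 5) had an electrode placed in the lateral nucleus of the left amygdala and received no current. The 5 rats given amygdala stimulation (rats 6 to 10) received pulses of 400 µA at 60 Hz for 30 min through the same kind of electrode, and the status epilepticus this evoked, an unbroken seizure that leaves many animals epileptic, was stopped with diazepam. Per the study's methods, video EEG before the end of the experiment found spontaneous seizures in all stimulated animals enrolled. The tissue was not dissociated, so its oligodendrocytes were measured together with neurons, astrocytes, microglia and vessels. The study's methods count 1 stimulated animal fewer for this assay than the labels do, so each rat was also left out in turn.

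Oligodendrocytes wrap axons in layers of membrane that speed conduction, and they arise through life from progenitor cells that carry the PDGF receptor alpha. PDGF ligands keep the progenitors dividing, Olig and Sox factors commit them to the lineage, and Sox10 with partner factors turns on the genes of the sheath. In the hippocampus myelinated fibres run mainly in the alveus, the fimbria and the deeper layers rather than among the granule cells.

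Sham rat 4 and stimulated rat 7 stood apart from their groups for most of the 9 genes, and values are given with and without them where they decide a result. None of the 9 genes differed between stimulated and sham rats at an adjusted p-value under 0.05 (quasi-likelihood test of edgeR, Benjamini-Hochberg adjustment over 22447 features). That threshold was passed by 0% of all features tested. Likewise 0 of the 9 passed at an unadjusted p-value under 0.05, which 9.86% of all features did, and in 0 of the 9 were the groups free of overlap, which held for 1.29% of all features. The log2 fold change, stimulated over sham, was below 0 for 8 genes and above 0 for Mal alone. Its median was -0.12 over the 9 genes and 0.01 over all features, of which 47.8% were below 0. The 95% intervals of the 9 genes together ran from a 0.661-fold to a 1.38-fold level in stimulated rats, so differences within these bounds were not resolved with 5 rats a group. In bulk tissue fewer oligodendrocytes and less RNA per oligodendrocyte cannot be told apart. Mean counts per rat were 1027.2 for Pdgfra to 13542.3 for Mbp, so counting error was smallest for Mbp. It weighed more on Pdgfra, which had the fewest counts and the smallest fold between its highest and lowest rat.

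**Figure D1:**
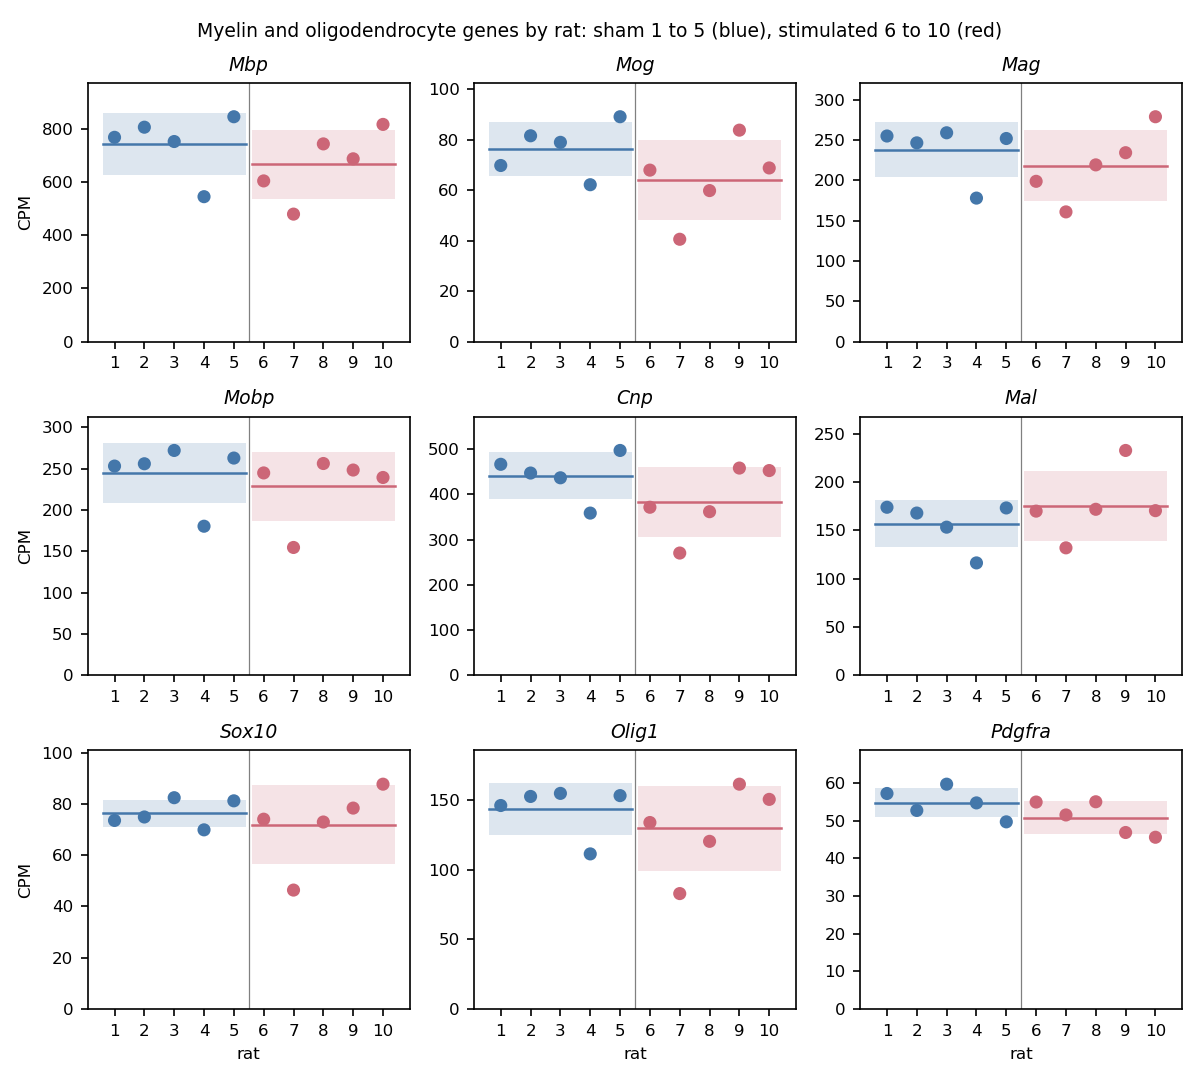
Level of each of the 9 genes in CPM (y axis from 0) for rats 1 to 10 (x axis), with sham rats in blue and stimulated rats in red; lines are group means and bands ± 1 SD (n = 5 each). The groups overlap in every panel, and stimulated rat 7 is the lowest of the 10 rats in 7 panels.

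Of the genes for sheath proteins, Mbp encodes myelin basic protein, which holds the inner faces of the membrane layers together. Its level (NM_001025292) in CPM, the read count scaled to a common library size, was 767, 805, 752, 544 and 845 in sham rats 1 to 5, and 604, 479, 743, 687 and 816 in stimulated rats 6 to 10. Sham rat 4 and stimulated rat 7 were the lowest of their groups, rat 10 lay among the other 4 sham rats, and rats 6, 8 and 9 lay between these and rat 4. Group means were 743 ± 117 CPM for sham and 666 ± 130 CPM for stimulation (SD, n = 5 each), giving a log2 fold change of -0.16 (SE 0.142, 95% interval -0.46 to 0.15, edgeR adjusted p = 0.737). Mbp had 6 rows, 1 per transcript, and how reads common to them were counted was not stated. In each rat 5 of them agreed closely in count, the gap between the highest and the lowest being 1.67 to 4.41% of their mean. The sixth, NM_001025289, had 1073 to 1810 counts. The other 8 genes had 1 row each.

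Mog encodes a glycoprotein of the outermost sheath surface and had the lowest fold change of the 9. Its level (NM_022668) was 69.8, 81.5, 78.9, 62.1 and 89.1 CPM in sham rats 1 to 5. In stimulated rats 6 to 10 it was 67.9, 40.5, 59.8, 83.8 and 68.8 CPM. Rats 7 and 8 lay below the lowest sham rat and the other 3 stimulated rats within the sham range. Group means were 76.3 ± 10.5 CPM for sham and 64.2 ± 15.8 CPM for stimulation (SD, n = 5 each), and the log2 fold change was -0.25 (SE 0.162, edgeR adjusted p = 0.624). Without stimulated rat 9 it was -0.36 and passed at the unadjusted level, with an edgeR adjusted p of 0.549.

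Cnp encodes an enzyme of the cytoplasmic channels of the sheath that is present early in oligodendrocyte maturation. Its level (NM_012809) was 466, 447, 437, 359 and 497 CPM in sham rats and 372, 270, 362, 458 and 453 CPM in stimulated rats. Only rat 7 lay below the sham range, and rats 6 and 8 lay near its lower end, at sham rat 4. The log2 fold change was -0.20 (SE 0.133, edgeR adjusted p = 0.626).

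Mag encodes an adhesion protein on the innermost membrane facing the axon. Its level (NM_017190) was 255, 247, 259, 178 and 252 CPM in sham rats and 199, 161, 219, 234 and 279 CPM in stimulated rats. The stimulated rats spread around the sham range, with rat 7 below it and rat 10 above it, and the log2 fold change was -0.12 (SE 0.139, edgeR adjusted p = 0.799). Mobp (NM_012720) was at 253, 256, 272, 181 and 263 CPM in sham rats and at 245, 155, 256, 249 and 240 CPM in stimulated rats. In this gene 4 rats of each group lay close together and the fifth, rat 4 in sham and rat 7 in stimulated rats, lay well below. The log2 fold change of Mobp was -0.10 (SE 0.141, edgeR adjusted p = 0.857), and it was 0.0024 without rat 7.

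Mal encodes a small membrane protein that carries sheath proteins to myelin late in maturation. Its level (NM_012798) was 174, 168, 153, 116 and 173 CPM in sham rats and 170, 132, 172, 233 and 171 CPM in stimulated rats. Rat 9 was the highest of all and sham rat 4, not rat 7, the lowest of all, while 3 stimulated rats lay beside the highest 3 sham rats. The log2 fold change was 0.16 (SE 0.143, edgeR adjusted p = 0.737), and it stayed above 0 with any 1 rat left out (0.04 to 0.24).

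Sox10 and Olig1 encode transcription factors present from the progenitor to the mature cell. Sox10 (NM_019193) was at 73.5, 74.9, 82.4, 69.9 and 81.2 CPM in sham rats and at 74.0, 46.4, 72.9, 78.4 and 87.7 CPM in stimulated rats. Rat 7 lay well below the sham range and rat 10 just above it, and the log2 fold change of -0.09 (SE 0.138, edgeR adjusted p = 0.870) was 0.02 without rat 7. Olig1 (NM_021770) was at 146, 153, 155, 111 and 153 CPM in sham rats and at 134, 82.8, 120, 161 and 150 CPM in stimulated rats. Here rat 7 was below and rat 9 above the sham range, and the log2 fold change was -0.15 (SE 0.155, edgeR adjusted p = 0.786).

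Pdgfra (NM_012802), the progenitor receptor, varied least of the 9 genes, with 1.31-fold between its highest and lowest rat, against 1.73-fold to 2.2-fold for the others. It was at 57.2, 52.7, 59.7, 54.7 and 49.7 CPM in sham rats and at 55.0, 51.5, 55.0, 46.9 and 45.6 CPM in stimulated rats. Rats 4 and 7 were at the median of their own groups, and rats 9 and 10 lay below the sham range. Group means were 54.8 ± 3.88 CPM for sham and 50.8 ± 4.42 CPM for stimulation (SD, n = 5 each), giving a log2 fold change of -0.11 (SE 0.0909, edgeR adjusted p = 0.716).

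**Figure D2:**
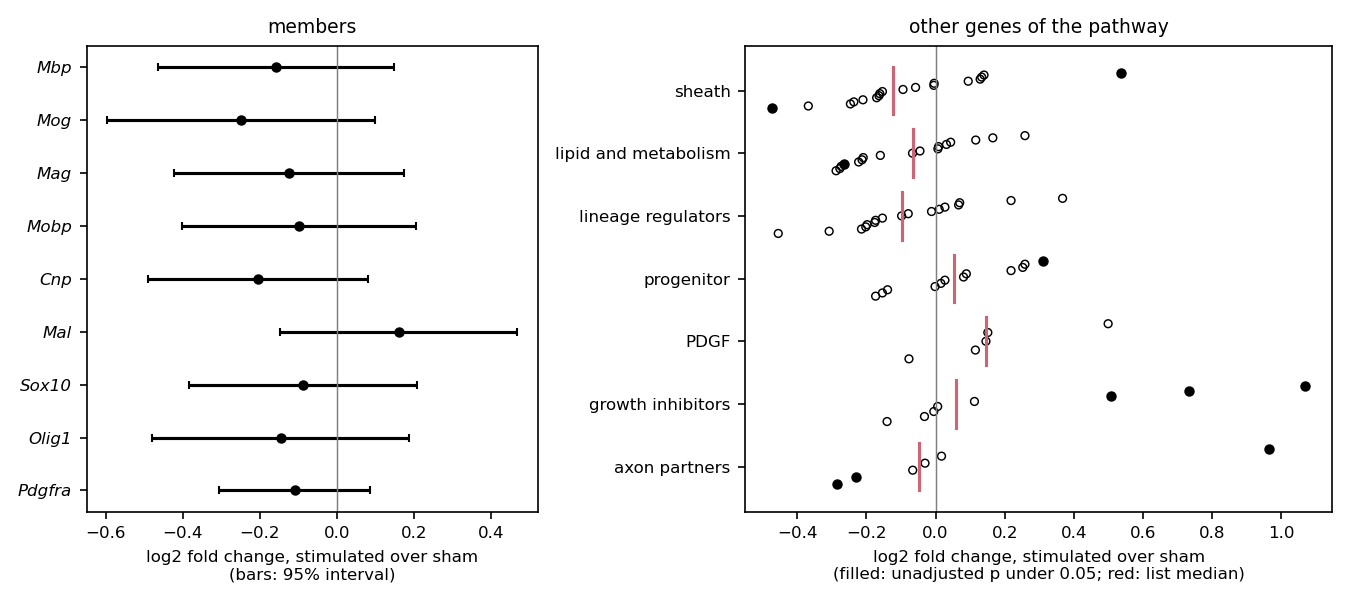
Log2 fold change, stimulated over sham (x axis), for the 9 genes with 95% intervals (left) and for the 78 other genes of the pathway that were tested, by list (right, 1 point a gene, filled at an unadjusted p-value under 0.05, red line at the list median; a gene of 2 lists is drawn in both). All 9 intervals on the left include 0, and Lingo1 is the farthest point on the right at 1.07.

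The genes shared a pattern across rats that did not follow the groups. Sham rat 4 was the lowest of the sham rats for 8 genes, and stimulated rat 7 the lowest of the stimulated rats for 8 and of all rats for 7. Relative to the median of its own group, rat 4 was at 69.3 to 100% over the 9 genes, with a median of 73.0%, and rat 7 at 59.7 to 100%, with a median of 69.8%. In both rats the gene at 100% was Pdgfra. The SD of log2 CPM was larger in stimulated than in sham rats for 9 of the 9 genes, a count that was not tested, since the genes share the same rats. The share of all features with a larger SD in stimulated rats, or lowest in rat 4 or rat 7, was not computed. These counts therefore cannot be read as particular to the 9 genes.

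Over the 10 rats, log2 CPM was correlated within 36 pairs of genes. For the 21 pairs without Pdgfra and Mal, Pearson's r was 0.77 to 0.96, and all 21 pairs passed an adjusted permutation p-value of 0.05. Spearman's rho was 0.48 to 0.92 over these 21 pairs. By rho 5 of them passed, at 0.83 to 0.92. Cnp and Olig1 had the highest r, at 0.96 (permutation p = 0.00034, adjusted p = 0.00288, n = 10), with a rho of 0.75 (permutation p = 0.0173, adjusted p = 0.0778). Mbp and Mag followed at 0.95 (permutation p = 0.00015, adjusted p = 0.0018, n = 10), with a rho of 0.84 (permutation p = 0.0039, adjusted p = 0.0343). Mal with the same genes gave r of 0.50 to 0.69 and Pdgfra with all others gave -0.41 to 0.10, and 0 of these pairs passed.

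The joint variation rested largely on rats 4 and 7. Without the 2 rats farthest from the median of the first gene, r in the 21 pairs was -0.04 to 0.88, with a median of 0.50. With rat 4 left out 11 pairs of all 36 passed, with rat 7 left out 3, and with both left out 0. Some pairs kept a high r without rats 4 and 7, among them Cnp with Olig1 at 0.86, Mog with Olig1 at 0.85 and Mbp with Mag at 0.82. Within groups, with each value centred on its group mean, r in the 21 pairs was 0.74 to 0.96.

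**Figure D3:**
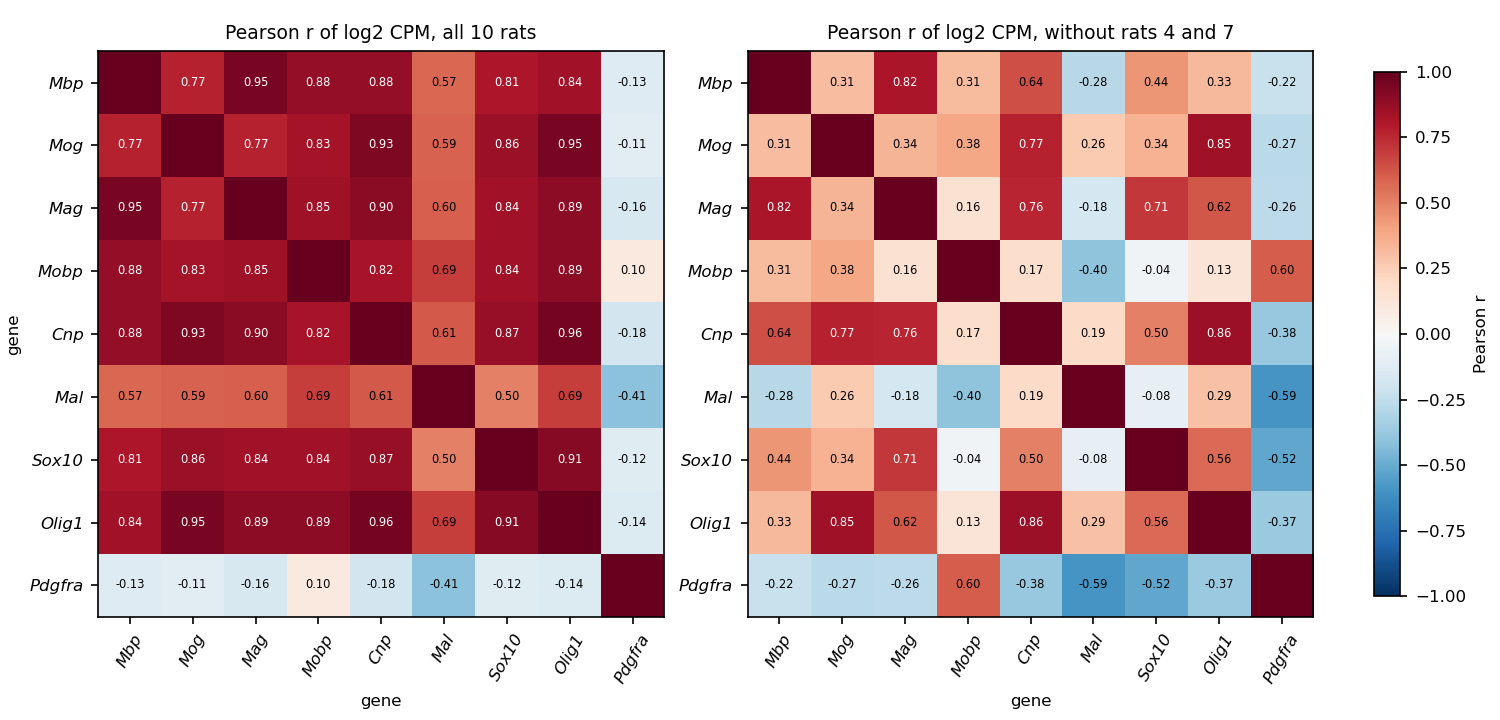
Pearson's r of log2 CPM between the 9 genes (both axes, colour and number from -1 to 1) over all 10 rats (left) and over the 8 rats other than 4 and 7 (right). On the left the block without Mal and Pdgfra lies at 0.77 to 0.96, and on the right the same block runs from -0.04 to 0.86.

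Sequence around the annotated starts is shown for Mobp, Mag, Cnp and Pdgfra. Over all 10 rats the first 3 had r of 0.82 to 0.90 with each other and -0.18 to 0.10 with Pdgfra. That grouping did not hold for Mobp without rats 4 and 7. Its r was then 0.16 with Mag, 0.17 with Cnp and 0.60 with Pdgfra, while Mag with Cnp was at 0.76. RefSeq windows of 300 bases in the GRCr8 build, from 250 bases before to 50 after a start, were at hand for 6 of the 9 genes, with 1 window each for Mag, Mobp, Cnp, Mal and Pdgfra and 2 for Mbp. Mog, Sox10 and Olig1 had none. The core ACAAAG bound by Sox factors and the E-box CAGCTG of the kind bound by Olig factors were searched on both strands. In the windows below, 5′ to 3′ on the strand of the gene, capitals mark the Sox core, which reads CTTTGT where it lies on the opposite strand.
Mobp, chr8:128746982-128747281, plus strand: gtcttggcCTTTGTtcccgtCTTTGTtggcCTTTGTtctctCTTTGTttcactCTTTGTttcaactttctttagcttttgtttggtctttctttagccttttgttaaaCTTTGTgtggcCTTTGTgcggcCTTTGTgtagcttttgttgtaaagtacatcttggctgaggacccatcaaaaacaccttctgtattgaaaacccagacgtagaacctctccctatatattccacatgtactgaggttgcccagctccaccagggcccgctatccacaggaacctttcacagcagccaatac
Mag, chr1:95290995-95291294, minus strand: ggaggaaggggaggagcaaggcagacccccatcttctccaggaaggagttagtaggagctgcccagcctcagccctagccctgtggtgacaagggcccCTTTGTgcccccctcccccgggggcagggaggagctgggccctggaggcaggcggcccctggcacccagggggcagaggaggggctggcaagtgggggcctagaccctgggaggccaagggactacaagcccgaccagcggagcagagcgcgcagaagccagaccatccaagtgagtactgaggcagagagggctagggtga
Cnp, chr10:86011254-86011553, plus strand: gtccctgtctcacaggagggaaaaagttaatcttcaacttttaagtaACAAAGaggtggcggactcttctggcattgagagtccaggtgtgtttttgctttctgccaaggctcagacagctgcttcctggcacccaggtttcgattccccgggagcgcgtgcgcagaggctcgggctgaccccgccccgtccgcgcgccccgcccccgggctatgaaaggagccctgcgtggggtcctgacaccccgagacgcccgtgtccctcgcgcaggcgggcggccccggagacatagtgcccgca
Pdgfra, chr14:33408467-33408766, minus strand: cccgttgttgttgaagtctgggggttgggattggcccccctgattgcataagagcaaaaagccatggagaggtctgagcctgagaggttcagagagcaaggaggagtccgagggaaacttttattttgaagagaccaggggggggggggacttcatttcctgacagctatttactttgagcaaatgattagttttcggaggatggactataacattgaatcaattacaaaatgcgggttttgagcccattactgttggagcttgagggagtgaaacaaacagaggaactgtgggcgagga
The Mobp window, upstream of the gene for a small protein of compact myelin, held 8 Sox cores, all on the strand opposite to the gene, the first starting at position -242 and the last at -120 from the start. Only 3 of 33469 windows (0.00896%) held 8 or more. The 8 cores lay in a T-rich, repeated stretch at near-regular steps, at -242, -230, -220, -209 and -197, then -142, -131 and -120. They are therefore not independent matches, and the share over all windows takes no account of repeats. Mag had 1 core at -152 and Cnp 1 at -203. A Sox core was found in 18.8% of all windows and an E-box in 15.1%. The second Mbp window also had 1 core, at -240, and the first Mbp window, Mal and Pdgfra had none. An E-box was present in the Cnp window and in the second Mbp window, and overlapped no Sox core. These matches describe letters in the sequence and were not measured as binding.

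Ratios within a library do not depend on how libraries are scaled, and 3 were compared. Mbp over Pdgfra, a sheath gene over a progenitor gene, differed by -0.05 on the log2 scale, stimulated minus sham (exact permutation test, two-sided, p = 0.818, adjusted p = 0.818). Mog over Sox10 differed by -0.16 (exact p = 0.127, adjusted p = 0.381), with 3 of 5 stimulated rats below the lowest sham rat. Mag over Olig1 differed by 0.04 (exact p = 0.675, adjusted p = 0.818). Its SD was 0.05 in sham and 0.195 in stimulated rats, and the stimulated values lay on both sides of the sham range. The smallest p-value this test can give is 0.00794.

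Other genes of the pathway were taken from 7 lists, of which 78 of 86 genes were tested. None of the 78 passed an adjusted p-value under 0.05. At an unadjusted p-value under 0.05, 6 (7.69%) were higher and 4 (5.13%) lower in stimulated rats, against 6.7% and 3.16% of all features. Those described below are Cd9, Ptprz1, Lingo1, Rtn4rl1, Rtn4rl2 and Gldn on the higher side and Qdpr, Cntnap1 and Sptbn4 on the lower side. Without rats 4 and 7 these counts were 1 and 2.

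Among 18 genes of the sheath and its junctions, 5 were above and 13 below 0, with a median log2 fold change of -0.12. Cd9, a tetraspanin of myelin that other cells also make, had a log2 fold change of 0.54 (edgeR adjusted p = 0.432), with rat 7 at 130 CPM against 46.6 to 59.3 CPM in sham rats. It was 0.28 without rat 7 and 0.24 without rats 4 and 7, and passed at the unadjusted level in neither. Cntn2 (-0.37) and Gpm6b (0.14) did not pass at either level.

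Of 17 genes for myelin lipids and oligodendrocyte metabolism, 7 were above and 10 below 0, with a median of -0.07. Qdpr, which recycles tetrahydrobiopterin, was the one that passed at the unadjusted level. It was at 243 to 325 CPM in sham rats and 222 to 258 CPM in stimulated rats, with rat 4 the lowest sham rat, and its log2 fold change was -0.26 (edgeR adjusted p = 0.409). The change in Qdpr was -0.35 without rats 4 and 7. Tf (-0.16), which encodes the iron carrier transferrin, Car2 (-0.27), a carbonic anhydrase, and Klk6 (-0.28), a secreted protease, did not pass.

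The 17 regulators and receptors of the lineage had a median of -0.10, with 0 past the unadjusted level in either direction. Olig2, the close relative of Olig1, was at 29.3 to 38.3 CPM in the sham group and 25.7 to 34.8 CPM after stimulation, and the log2 fold change was -0.21 (SE 0.118, edgeR adjusted p = 0.563). Myrf, the factor that drives sheath genes in mature cells, was at -0.18, and Gpr37 was at -0.20. St18 was at -0.31 with all rats and -0.18 without rat 7, and Id2, an inhibitor of differentiation, at 0.37 with all rats and 0.09 without rat 7.

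The 12 progenitor genes had a median of 0.05. Cspg4, which encodes the NG2 proteoglycan of progenitors and pericytes, was at 33.1 to 43.5 CPM in the sham group and 27.2 to 47.2 CPM after stimulation, and the log2 fold change was 0.02 (SE 0.137, edgeR adjusted p = 0.981). Ptprz1, a receptor phosphatase that astrocytes also make, had a log2 fold change of 0.31 (edgeR adjusted p = 0.431). It was at 133, 96.3, 132, 129 and 124 CPM in sham rats and at 140, 198, 137, 146 and 140 CPM in stimulated rats. Every stimulated rat lay above the highest sham rat, and rat 7 was the highest, a separation that 1.29% of all features showed. Without rats 4 and 7 the change in Ptprz1 was 0.21 and no longer passed at the unadjusted level, and without rat 7 alone it was 0.18. Tnr (-0.14), Vcan (0.26) and Matn4 (0.25) did not pass. Among the PDGF genes, the ligands Pdgfa (-0.08), Pdgfb (0.15) and Pdgfc (0.50) and the other receptor Pdgfrb (0.15) did not pass either.

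The 8 genes for myelin-associated inhibitors of axon growth and their receptors, which neurons carry, had a median of 0.06 and included Lingo1, the farthest from 0 of the pathway genes tested. Lingo1, a partner of the Nogo receptor, was at 241, 312, 293, 313 and 292 CPM in sham rats and at 263, 1138, 273, 908 and 463 CPM in stimulated rats. Rats 7, 9 and 10 were above every sham rat, and rats 6 and 8 lay within the sham range. The log2 fold change of Lingo1 was 1.07 (SE 0.342, edgeR adjusted p = 0.399), 0.70 without rat 7 and 0.75 without rats 4 and 7. Both relatives of the Nogo receptor in the list had their highest value in rat 9. Rtn4rl1 was at 503 CPM there against 168 to 207 CPM in sham rats (log2 fold change 0.51, edgeR adjusted p = 0.505), and Rtn4rl2 at 192 CPM against 38.6 to 65.95 CPM (0.73, edgeR adjusted p = 0.503). Without rat 9 Rtn4rl1 was at 0.15 and Rtn4rl2 at 0.23, and neither passed at the unadjusted level. Without rats 4 and 7 Rtn4rl1 was at 0.58 and Rtn4rl2 at 0.76, and again neither passed at that level. Rtn4, which encodes Nogo itself, was at -0.03.

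The list of axonal and nodal partners of the sheath had 6 genes tested. Cntnap1, the axonal protein of the paranodal junction, was at 316 to 371 CPM in the sham group and 240 to 333 CPM in stimulated rats. Its log2 fold change was -0.23 (edgeR adjusted p = 0.486). Sptbn4, the spectrin of nodes and initial segments, had a log2 fold change of -0.29 (edgeR adjusted p = 0.431). In both, rat 7 was the lowest of all rats, and without rats 4 and 7 they were at -0.18 (Cntnap1) and -0.20 (Sptbn4) and no longer passed at the unadjusted level. Gldn, a matrix protein of nodes, was at 0.97 (edgeR adjusted p = 0.478), with rat 7 at 28.5 CPM against 3.82 to 7.56 CPM in sham rats. Gldn was at 0.40 without rat 7, with or without rat 4, and did not pass. Nrcam was at 0.02.

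The level of each other gene was also compared with the mean log2 CPM of the 6 sheath genes Mbp, Mog, Mag, Mobp, Cnp and Mal over the 10 rats, as a description. Of 11197 genes, those most like them included Fa2h (r of 0.94), S1pr5 (0.93), Fah (0.92), Pllp (0.91), Uap1l1, Nkx6-2 and Tmem229a (0.90 each), and Sox8 and Gjc3 (0.89 each), and 6 of the 10 highest were in a list above. Fa2h, which hydroxylates the fatty acids of myelin lipids, kept an r of 0.93 without rats 4 and 7, while Gjc3 was at 0.22. The median r was -0.02 over all genes, and by list it was 0.75 for the sheath, 0.65 for lipids and metabolism, 0.64 for the regulators and 0.00 for the progenitor genes. The points share the same libraries, so no test was made. Of the 52 genes in the first 3 lists, 30 were lowest in rat 7 and 8 in rat 4. The share of all features lowest in these rats was not computed, so the counts cannot be read as particular to these lists.

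Markers of other cells moved in some of the same rats. Gfap, the filament protein of astrocytes, was at 1327 to 1927 CPM in sham rats and at 1326, 6469, 1375, 2079 and 5396 CPM in stimulated rats, so rats 7 and 10 stood apart. Of the 6 astrocyte markers tested, of 7, 4 (Gfap, Aqp4, Slc1a2 and Slc1a3) were higher at an unadjusted p-value under 0.05, against 6.7% of all features. Gfap made up most of their summed level, which was 2512 to 3092 CPM in the sham group and 2604 to 7861 CPM in stimulated rats. Without Gfap the other 5 summed to 1072 to 1338 CPM in the sham group and 1278 to 1518 CPM in stimulated rats. Rats 7 and 10 were at 1391 and 1400 CPM, so neither was the highest by this sum. Aldh1l1, an enzyme of astrocytes, went the other way in these 2 rats, at 16.4 and 29.3 CPM against 40.5 to 50.9 CPM in sham rats, and Gja1, their main gap junction protein, was at 271 CPM in rat 7, below every sham rat. Rat 10, with Gfap nearly as high as in rat 7, was the highest of the 10 rats for Mag and Sox10. Of 7 microglial markers, 1 (C1qa) was higher, with sums of 286 to 363 and 312 to 461 CPM. Of the 6 neuronal markers, 0 passed (2633 to 2886 and 2256 to 2969 CPM), and rat 4 had the highest sum of the sham rats, at 2886 CPM. Rat 7 was above every sham rat, at 2937 CPM, but its markers went both ways. In it Map2 was at 869 CPM, above the 546 to 703 CPM of sham rats, and Rbfox3 at 124 CPM, below their 183 to 227 CPM. Of 5 endothelial markers, 3 (Pecam1, Flt1 and Cdh5) were higher, with the highest sum in rat 10 (119 to 138 and 133 to 251 CPM), and 0 of 4 choroid plexus markers and 0 of the 4 tested markers of granule and CA3 cells passed in either direction. Of the granule and CA3 markers in rat 7, C1ql2 was at 44.8 CPM, below the 140.5 to 165.1 CPM of sham rats. Cpne4 was at 334.9 CPM there, above their 235.9 to 289.4 CPM. The part of these cells in the low values of rat 7 was not tested.

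Schwann cells, which myelinate peripheral nerves and also express Mbp, Mag, Cnp and Mal, were checked with their markers. Prx, which encodes periaxin of the peripheral sheath, was at 8.24 CPM in rat 8 and at 1.58 to 3.21 CPM in the other 9 rats, and Pmp2 was also highest there, at 1.79 CPM. Ncmap had 41 counts in rat 7 and at most 2 in the other rats. Neither Prx nor Pmp2 passed at the unadjusted level. Of 5 fibroblast markers, 2 (Col3a1 and Lum) were higher at that level, against 6.7% of all features. Col3a1 was highest in rat 8 and Lum in rat 10. All 5 markers together summed to 41.1, 34.2, 68.3, 45.9 and 49.7 CPM in stimulated rats against 27.4 to 42.3 CPM in sham rats. By this sum rats 8, 9 and 10 lay above the sham range and rat 8 was the highest. In rat 8 the sheath genes lay within the range of the other rats. Without rat 8 the median log2 fold change of the 9 genes was -0.15, against -0.12 with all rats. The part of Schwann cells and fibroblasts in the levels of rat 8 was not tested.

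**Figure D4:**
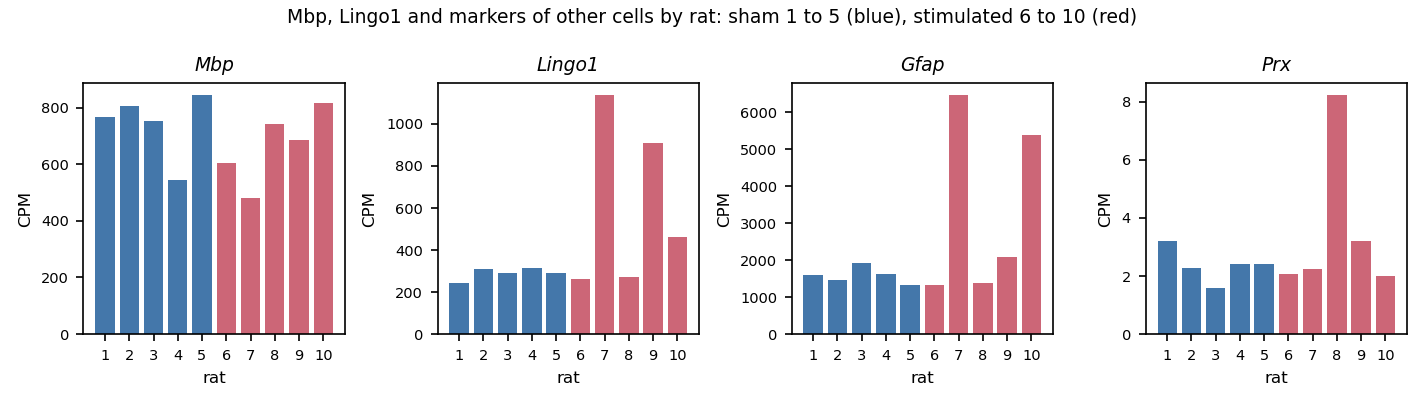
Level of Mbp, Lingo1, the astrocyte gene Gfap and the Schwann cell gene Prx in CPM (y axes from 0) for rats 1 to 10 (x axis), with sham rats in blue and stimulated rats in red; each bar is 1 rat. Rat 7 has the lowest Mbp and the highest Lingo1 and Gfap, at 479, 1138 and 6469 CPM, and rat 8 the highest Prx, at 8.24 CPM.

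Libraries held 13552309 to 24086059 aligned counts, and a further 32.0 to 45.1% of reads were not aligned. Of these libraries rat 4 was the deepest, and rat 7 had the lowest share not aligned. That share was 32.8 to 37.1% in sham rats and 35.6, 32.0, 41.4, 42.9 and 45.1% in stimulated rats 6 to 10. Rats 8, 9 and 10 were thus above every sham rat, and the part of this difference in the results was not tested. Known oligodendrocyte genes were detected in every rat, with at least 691 counts for each of the 9.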

How the data were processed

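The 9 genes and all lists were chosen with earlier results of these data known. Groups came from the treatment label and replicate numbers from accession order, so rats are not paired and p-values measure the spread between 5 animals a group. The authors aligned 36-cycle single reads with BWA to the rn4 build, per the submitters' processing notes, and deposited raw counts per transcript, as whole numbers without normalization. The study's methods name an Ensembl annotation, the rows carry RefSeq identifiers, and the use of strand and the handling of shared reads were not stated. The row of unaligned reads (32.0 to 45.1% of a library) was set aside, which left 32041 features, and symbols came from the RefSeq table of GRCr8 for names only.

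Features with a summed count below the 30th percentile (46 counts) were left out, and 22447 were fitted in edgeR 4.0.16, quasi-likelihood test (R 4.3.3, TMM normalization, no covariate, Benjamini-Hochberg adjustment). CPM used TMM-scaled library sizes, and log2 CPM a prior count of 2. Ratios were compared by exact permutation over 252 assignments, and correlations with 100000 permutations, both two-sided. The tests were checked on simulated data. The text names all 9 genes, from each other list the 2 with the highest mean count and the 3 with the lowest p, always Olig2 and Cspg4, and the 10 genes most like the sheath genes (mean CPM of at least 1). Some genes that the rule or the marker lists name are not reported here, and counts over lists include them. Marker genes were named after their values were seen. Alternatives were RLE or library size scaling, other filters, the likelihood ratio test, DESeq2 1.42.0, limma-voom (limma 3.58.1), summed rows of a symbol, a prior count of 0.5 and the omission of each rat. Transcript lengths were not used, so levels are not compared between genes. Tables used numpy 2.4.6, pandas 2.3.3 and scipy 1.17.1.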

Additional observations from a re-analysis of the deposited data

Results flagged for a closer look

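In 6 of 18 sets of 5 log2 CPM values (9 genes in 2 groups), the lowest rat stood apart from the other 4. The gap to its neighbour took more of the whole range than the 95% critical value of 0.71. These shares hold for the log2 scale and differ from those of the CPM printed above. Chance alone passes about 1 set in 20, or 0.9 of 18, and the 9 genes share the same rats. Sham rat 4 was the separate one for Mbp (0.734 of the range), Mag (0.868), Mobp (0.825) and Olig1 (0.824). Stimulated rat 7 was the separate one for Mobp (0.865) and Sox10 (0.711).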

How the results depend on the processing

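No paired analysis was possible because the replicate numbers follow accession order and no rat is in both groups. The count of the 9 genes past an adjusted p-value under 0.05 was 0 in every alternative, with 0.511 the lowest adjusted p-value reached. Over all features that count was 0 in the reported test, 119 by the likelihood ratio test of edgeR and 33 by DESeq2. Leaving out rats 4 and 7 together was added after the data were seen. It gave 1168 features at an unadjusted p-value under 0.05 in place of 2214, 1 and 2 other genes of the pathway higher and lower in place of 6 and 4, and 0 correlated pairs in place of 21. It also turned the sign of Sox10 (0.0042), Pdgfc (-0.0889) and the log2 ratio of Mag over Olig1 (-0.023). By limma-voom 3 pathway genes were higher, and Cspg4 was at -0.01.

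With 1 rat left out at a time, the 9 genes held 0 to 1 at an unadjusted p-value under 0.05 (Mog, without rat 9), and correlated pairs numbered 3 (without rat 7) to 24, with 11 without rat 4. Pathway genes higher at that level numbered 2 (without rat 7) to 7, with 3 without any one of rats 1, 2, 3 and 4. Those lower numbered 2 (without rat 1 or rat 2) to 9 (without rat 9), with 7 without rat 6 or rat 8. Log2 fold changes ran from -0.19 to 0.0024 for Mobp and -0.17 to 0.0232 for Sox10, both above 0 without rat 7 alone. They ran from -0.14 to 0.0021 for Pdgfa, -0.0505 to 0.23 for Pdgfrb, -0.12 to 0.67 for Pdgfc, -0.0419 to 0.24 for Pdgfb, -0.10 to 0.0082 for Rtn4, -0.0358 to 0.10 for Nrcam and -0.064 to 0.11 for Cspg4. Of the other pathway genes named, Gpr37 ran from -0.27 to -0.09, Myrf from -0.33 to -0.10, Tnr from -0.27 to -0.0022 and Matn4 from 0.08 to 0.38. The log2 ratio of Mbp over Pdgfra ran from -0.17 to 0.0643, and that of Mag over Olig1 from -0.0106 to 0.0941. The cause was not tested. Mbp, Mog, Mag, Cnp, Mal, Olig1 and Pdgfra kept their sign in every alternative. With at least 691 counts a rat for each of the 9 genes, counting error was small, though less so beside the narrow spread of Pdgfra.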
